A study of Mus musculus with 1617 samples.

Results

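Microglia of the P14 mouse brain that carried a high level of Ccl4 were set against microglia without it. The cells came from hippocampus, thalamus and visual cortex and were chosen by their own Ccl4 value. In this order, 43, 68 and 40 cells held Ccl4 at 100 TPM or more and are called Ccl4-high, and 37, 74 and 59 held less than 1 TPM and are called Ccl4-negative. The 321 cells of both classes are part of 1617 single brain macrophages in the series. A further 38, 48 and 21 cells of these regions lay between the levels and entered no class.

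Every cell was sorted from mouse brain as positive for CD45, F4/80 and CD11b and negative for Ly6C, captured on a Fluidigm C1 chip and made into a Nextera XT library of its own. All cells compared were of postnatal day 14 and had single-end reads. The sources used here name no strain, genotype, sex, treatment or animal for them, so each region is 1 sample without replicates. Cells are not replicates, no difference was tested, and "higher" and "lower" in counts of genes mean a difference of 1.5-fold or more. Values are TPM, transcript levels scaled by length and to a fixed total per cell, so how many reads stand behind a value is unknown.

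Ccl3 and Ccl4, also known as MIP-1 alpha and MIP-1 beta, are small secreted chemokines. They act through receptors on other immune cells, which they draw in. Macrophages make them within a short time of an inflammatory stimulus, under transcription factors of the NF-kB and AP-1 families, together with cytokines such as interleukin 1 and with immediate early genes. In microglia the same set of genes is also known to respond to the handling of fresh brain tissue.

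Among the Ccl4-high cells, Ccl4 ran from 103.94 to 21093 TPM with a median of 1560.5 TPM. Its median was 1717.3 TPM in hippocampal, 1849.2 TPM in thalamic and 1129.2 TPM in visual cortex cells. All 170 Ccl4-negative cells were listed at 0. At the limits that set the classes, the lowest Ccl4-high cell held 103.94 TPM and the highest cell left out below it 93.91 TPM, and the lowest value above the negative class was 2.06 TPM. Thus no value lay between 0 and 2.06 TPM, and the high class begins inside a continuous spread. Whether the empty stretch above the negative class is a limit of detection was not tested, since read depth is unknown.

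The titles of the cells fall into 3 unbroken runs of numbers in each region, and what a run stands for is not known. The third run held few Ccl4-high cells in every region: 3 of 23 in hippocampus, 6 of 58 in thalamus and 5 of 37 in visual cortex. Over the 3 regions, the share of Ccl4-high cells was 43.4% in the first run (76 cells, exact Clopper-Pearson 95% interval 35.97 to 51.1%), 45.2% in the second (61 cells, 36.6 to 53.98%) and 11.9% in the third (14 cells, 6.64 to 19.1%). These intervals cover counting error over cells only. Class and run therefore move together, and values within runs are given below for the genes and lists where the text turns on them. The plot of Ccl4 by region and run shows this in single cells.

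**Figure D1:**
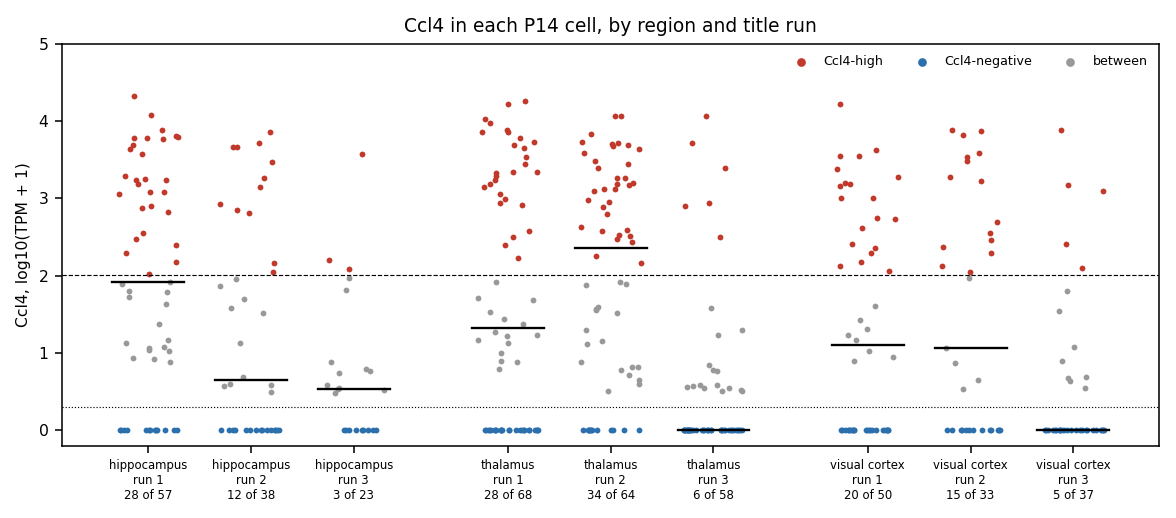
Ccl4 in each single-read P14 cell of the 3 regions, as log10(TPM + 1), by region and title run. Points are cells coloured by class, black lines are medians, the dashed line marks 100 TPM, the dotted line 1 TPM, and the numbers under each run give its Ccl4-high cells of all cells. In the third run of each region 3 to 6 cells lie above the dashed line.

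Both classes had the profile of microglia. P2ry12, a purinergic receptor that steers the processes of microglia, was seen at 1 TPM or more in 100% of both classes, and averaged 9966 and 9659 TPM over the 3 regions, Ccl4-high first here and below. Tmem119, a membrane protein gene marking microglia, averaged 766.3 and 894.4 TPM. The summed level of 6 microglia markers had a median of 25977 TPM (1204.6 to 56665) in Ccl4-high and 23693 TPM (599.4 to 51856) in Ccl4-negative cells. Of markers of other cells, all 5 erythroid genes and 6 of 8 neutrophil genes stayed below 1 TPM in every Ccl4-high cell, as did the B cell gene Cd79a in both classes. F13a1, Lyve1, Pf4 and Cd209f, which mark macrophages at the borders of the brain, were below 1 TPM in every Ccl4-high cell. The summed level of 11 such border markers had a median of 89.1 TPM (0 to 2642.3) in Ccl4-high and 91.7 TPM (0 to 7834) in Ccl4-negative cells. Markers of other brain cells were not absent. The summed level of astrocyte markers reached 100 TPM or more in 14.6% and 20% of cells. For oligodendrocyte lineage markers these shares were 9.27% and 8.82%, and for endothelial and mural markers 4.64% and 10%.

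The number of genes at 1 TPM or more, a measure of library quality, had a median of 4043 in Ccl4-high and 4035 in Ccl4-negative cells. By region the medians were 3923 and 4232 in hippocampus, 4037.5 and 4253.5 in thalamus, and 4222 and 3883 in visual cortex. Transcripts of the mitochondrial genome took a median of 2.56% and 2.54% of the total. Their means were further apart, at 3.33% and 5.12%, and went the other way in hippocampus (4.19% and 3.06%).

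Of the genes other than Ccl4, 10870 averaged 5 TPM or more over the P14 cells and count as measured. By the ratio of mean TPM, taken within each region and averaged, 1133 genes (10.4%) were 1.5-fold or more higher in Ccl4-high cells with the same sign in all 3 regions, and 1086 (9.99%) were lower. The median log2 ratio was 0.00. So many genes passed in both directions that a single gene's ratio says little, and many ratios rested on few cells. In 13.4% of the higher and 16.4% of the lower genes, 1 cell of the higher class held at least 50% of its total. Swap70, a guanine nucleotide exchange factor gene, averaged 476 and 25.5 TPM (log2 ratio 2.52), with 85.6% of the Ccl4-high total in 1 cell.

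The difference of mean log2(TPM + 1) gives a cell with an extreme value less weight. By this measure 462 genes (4.25%) lay on the higher and 66 (0.607%) on the lower side, and the median gene stood at 0.06. Of the genes higher by the ratio 16.9% were also higher by mean log2, which is 41.3% of the latter. The split of higher against lower genes moved with the measure and with the runs: 51.1% of all genes past the limit were higher by the ratio and 87.5% by mean log2. It was 64.4% by the ratio without the third run of every region, where the median of all genes stood at 0.16, and 35.5% by the ratio within runs, where the median stood at -0.17. Both log2 measures are given below for genes that matter, and genes ranked by mean log2 were chosen after their values were seen.

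Ccl3, the neighbour of Ccl4 in the chemokine cluster, stood first in the ranking by mean log2. It lies on the minus strand of chromosome 11 at 83647844 to 83649355 (GRCm38), and Ccl4 on the plus strand at 83662584 to 83664683. In hippocampus it ran from 0 to 4971 TPM with a median of 5.68 TPM in Ccl4-high cells and from 0 to 1324 TPM with a median of 0 in negative cells. In thalamus the medians were 477.5 and 2.545 TPM (highest 16431 and 6068 TPM), and in visual cortex 24.7 and 0 TPM (highest 14590 and 5486 TPM). The classes overlapped in every region, yet the upper values and the medians lay on the Ccl4-high side in each. Its means were 780.5 and 66.5 TPM in hippocampus, 1714 and 424 TPM in thalamus, and 922 and 284.998 TPM in visual cortex. The averaged log2 ratio was 2.41 (3.53, 2.01 and 1.69 in this order) and the difference of mean log2 was 3.03 (3.25, 3.399 and 2.44).

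Both chemokine genes were not tied cell by cell. Of the Ccl4-high cells 66.2% (58.1 to 73.7%) held Ccl3 at 1 TPM or more and 72 held 100 TPM or more. Of the Ccl4-negative cells, all at 0 for Ccl4, 76 (44.7%, 37.1 to 52.5%) held 1 TPM or more and 31 held 100 TPM or more. Ccl3 was thus read at high levels in cells where its paralog was listed at 0. Within runs, where third-run cells meet only third-run cells, the difference of mean log2 was 3.45 and positive in 9 of 9 runs, from 1.80 in the first run of visual cortex to 6.86 in the third of thalamus.

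Next in the ranking by mean log2 stood Id2, Atf3 and, after Ptprc, Il1a. Id2 encodes an inhibitor of basic helix-loop-helix transcription factors and lies on chromosome 12 at 25093799 to 25097140, minus strand. Its medians were 60.1 and 3.42 TPM in hippocampus, 395 and 2.62 TPM in thalamus, and 82.6 and 0 TPM in visual cortex, Ccl4-high first. Single cells overlapped fully, from 0 to 30983 TPM in Ccl4-high thalamic cells and from 0 to 12523 TPM in negative ones, but 79.5% against 53.5% of cells held the gene at 1 TPM or more. The log2 ratio was 0.93 and the difference of mean log2 2.43 (2.05, 2.92 and 2.33). Within runs the latter was 1.82 and positive in 8 of 9. The exception was the third hippocampal run (-1.54), with 3 Ccl4-high cells.

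Atf3 encodes a stress-induced transcription factor of the ATF/CREB family and lies on chromosome 1 at 191170296 to 191218039, minus strand. Its medians were 193.3 and 15.9 TPM in hippocampus, 596.5 and 62.3 TPM in thalamus, and 188.2 and 29.2 TPM in visual cortex. It was common in both classes, at 1 TPM or more in 90.1% and 77.6% of cells, so the classes differed in level more than in presence. Its visual cortex means, 2045 and 942 TPM, rested on single cells of 51364 and 39386 TPM. The log2 ratio was 1.01 and the difference of mean log2 2.18 (2.62, 1.88 and 2.03), which was 1.31 without the third run of every region and 1.71 within runs, positive in 9 of 9. Cells of the third run had less Atf3 as a whole: their mean log2 was 4.58, against 7.77 in the first run and 6.19 in the second.

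Il1a, which encodes the cytokine interleukin 1 alpha, lies on chromosome 2 at 129299610 to 129309972, minus strand. It was a gene of few cells, at 1 TPM or more in 72 Ccl4-high (47.7%, 39.5 to 55.96%) and 43 negative cells (25.3%, 18.9 to 32.5%). By region these were 21 of 43 and 16 of 37 cells in hippocampus, 31 of 68 and 16 of 74 in thalamus, and 20 of 40 and 11 of 59 in visual cortex. Hippocampus therefore stood nearly level, and means there were 197.3 and 183.9 TPM, while thalamus had 343.6 and 86.2 TPM and visual cortex 164.2 and 71.9 TPM. The log2 ratio was 1.09 and the difference of mean log2 1.59, or 1.30 within runs and positive in 9 of 9.

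**Figure D2:**
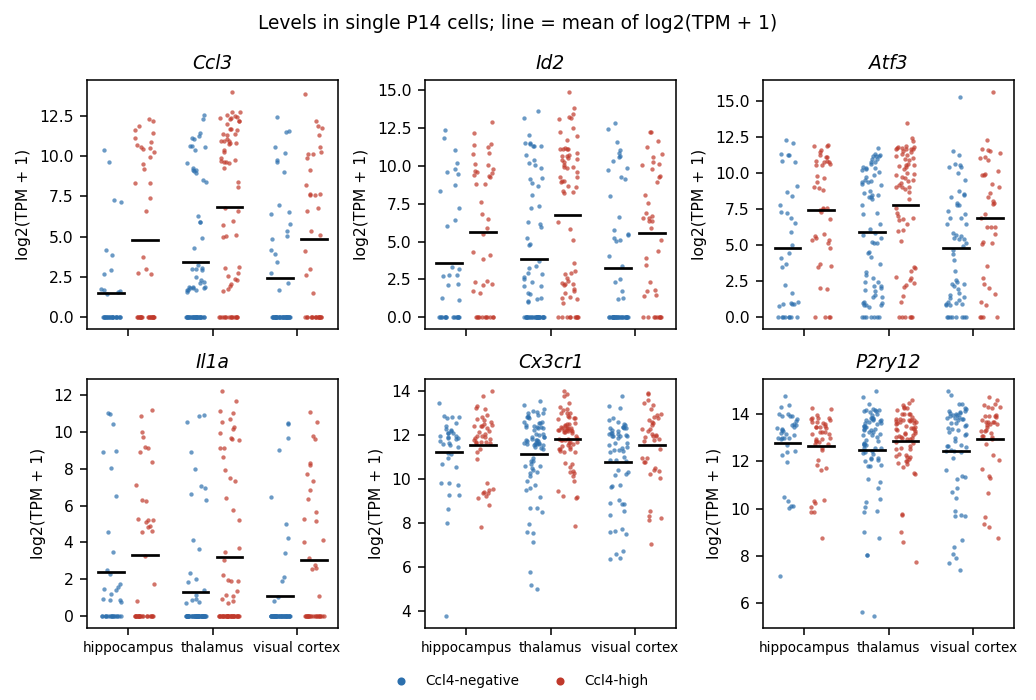
Levels of Ccl3, Id2, Atf3, Il1a, Cx3cr1 and P2ry12 as log2(TPM + 1) in single P14 cells, by region and class; blue points are Ccl4-negative, red points Ccl4-high, and lines are means of log2(TPM + 1). The mean of Ccl4-high cells lies above that of negative cells in all 3 regions for Ccl3, Id2, Atf3, Il1a and, by less, Cx3cr1, while P2ry12 lies close in both classes.

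The promoters of 3 of these genes are shown because the genes stood higher together; the fourth, Id2, held none of the motifs searched. Each is 250 bases before to 50 bases after the start of the gene, 5′ to 3′ on the gene's strand, from RefSeq (GRCm38.p6), with motif matches in capitals. They lie at chr11:83649329-83649628, chr1:191183284-191183583 and chr2:129309923-129310222, all on the minus strand. The RefSeq start of Atf3 lies inside the gene as GENCODE draws it.
Ccl3: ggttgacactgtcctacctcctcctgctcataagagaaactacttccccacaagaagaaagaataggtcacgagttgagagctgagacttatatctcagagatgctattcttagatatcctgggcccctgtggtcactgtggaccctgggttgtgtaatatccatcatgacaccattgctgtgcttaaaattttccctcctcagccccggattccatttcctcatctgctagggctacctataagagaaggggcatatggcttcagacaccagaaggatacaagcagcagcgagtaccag
Atf3: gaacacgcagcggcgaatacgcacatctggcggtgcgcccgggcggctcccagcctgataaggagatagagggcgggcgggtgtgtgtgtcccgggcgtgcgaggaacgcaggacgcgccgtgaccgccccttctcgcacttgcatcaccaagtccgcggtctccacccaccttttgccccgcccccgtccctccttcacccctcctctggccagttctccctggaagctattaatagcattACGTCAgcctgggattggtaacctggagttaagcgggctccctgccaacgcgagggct
Il1a: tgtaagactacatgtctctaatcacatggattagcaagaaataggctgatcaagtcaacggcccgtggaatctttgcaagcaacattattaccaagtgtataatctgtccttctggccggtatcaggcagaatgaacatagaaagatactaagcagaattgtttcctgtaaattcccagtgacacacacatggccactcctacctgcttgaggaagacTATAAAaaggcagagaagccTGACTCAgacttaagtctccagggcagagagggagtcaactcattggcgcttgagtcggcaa

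Motifs were searched on both strands: the AP-1 site TGANTCA, the core TGACGT of the cAMP response element, the kappaB consensus, and TATAAA. The window of Il1a held 1 AP-1 site and 1 TATAAA, and that of Atf3 held 1 response element core, read on the opposite strand. The Ccl3 window held no match, which says only that these letters are not in it. Over all 32817 RefSeq windows of this length, 7.81% held the AP-1 site, 7.51% the response element core, 8.46% the kappaB consensus and 13.6% TATAAA. Of the 20 genes ranked first by mean log2, 15 had a window, and 2, 1, 1 and 3 of them held these motifs in any window, in the same order. Counted in this way by gene, 8.97%, 8.37%, 9.55% and 15.7% of all 27025 genes with a window held them.

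The share of cells with Ccl3 differed within the high class. Ccl3 at 100 TPM or more was found in 31 of 170 cells without Ccl4 (18.2%), in 24 of the cells with 1 to 100 TPM (22.4%), in 16 of 58 with 100 to 1000 TPM (27.6%) and in 56 of 93 with 1000 TPM or more (60.2%). The large step thus lay at the top. Atf3 at this level went up in smaller steps, with 40.6%, 53.3%, 58.6% and 66.7% of cells, and Id2 with 25.9%, 35.5%, 44.8% and 52.7%. Il1a was already at 18.7% in the cells between and at 24.1% and 23.7% in the upper bands, so it did not separate moderate from very high Ccl4. Irf8, a transcription factor of microglial development, was at 29.4%, 22.4%, 37.9% and 53.8%. These bands pool the regions and runs and are descriptions of the same cells that the classes were chosen from.

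**Figure D3:**
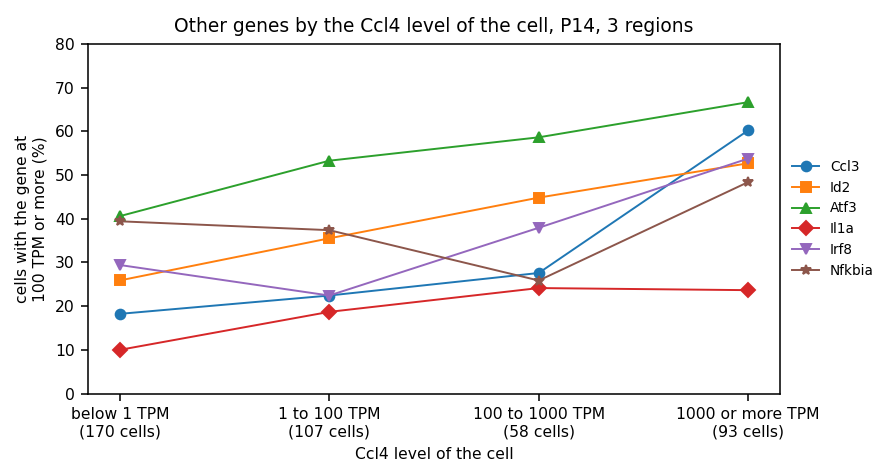
Share of P14 cells with each of 6 genes at 100 TPM or more, in percent, by the Ccl4 level of the cell, with lines joining the shares of 1 gene. Ccl3 steps from 27.6% to 60.2% between the upper bands, while Nfkbia shows no steady course.

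The Ccl4-high cells varied in how many of the genes described above they held, and whether they form 1 kind was not tested. Of the 4 genes Ccl3, Id2, Atf3 and Il1a, 8 of the Ccl4-high cells held all at 100 TPM or more, 41 held 3, 41 held 2, 42 held 1 and 19 held none (12.6%, 7.75 to 18.95%). Among the 170 negative cells 2 held all 4, 14 held 3, 31 held 2, 49 held 1 and 74 held none (43.5%, 35.95 to 51.3%). Most cells of both classes thus carried part of the set.

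Among 20 chemokine ligands listed, 8 were measured beside Ccl4, and Ccl3 was the 1 higher by either measure, with 0 lower. Of all genes, 10.4% were higher and 9.99% lower by the ratio, and 4.25% and 0.607% by mean log2. Ccl2, a ligand for the monocyte receptor CCR2, averaged 665.7 and 258.4 TPM (log2 ratio 1.54), but went the other way in visual cortex (423 and 461 TPM). Within runs its difference of mean log2 averaged 0.02, but the runs went opposite ways. They ranged from -2.32 in the second run of visual cortex to 2.11 in the first of hippocampus. Ccl12, a related ligand, averaged 794.5 and 795.3 TPM, with a difference of mean log2 of 0.98 that was 1.58 in hippocampus, 1.47 in thalamus and -0.10 in visual cortex, and 1.46 within runs (8 of 9 above 0). Ccl6, Ccl9, Cxcl16 and Ccl7 had log2 ratios of 0.17, -0.04, -0.73 and -2.36, and Ccl7 was seen in 4 and 6 cells. The median over the 8 ligands was -0.04 by the ratio and 0.36 by mean log2.

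Receptors stood near level. Ccr1, a receptor for Ccl3, was seen at 1 TPM or more in 34 and 36 cells. Cx3cr1, the fractalkine receptor, averaged 4606 and 3419 TPM (log2 ratio 0.43, mean log2 0.61, above 0 in 9 of 9 runs). Ccrl2, an atypical receptor that binds chemerin, averaged 122.8 and 60.1 TPM but was lower in visual cortex (56.9 and 92.2 TPM). Of 6 measured receptors, 0 passed by the ratio and Cx3cr1 passed by mean log2. The shares of all genes were 10.4% higher and 9.99% lower by the ratio, and 4.25% and 0.607% by mean log2.

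Of 7 measured cytokine genes 3 were higher by the ratio and 0 lower, beside 10.4% and 9.99% of all genes, with a median of 1.09 (all genes 0.00). The other cytokine genes of 20 listed did not pass the limit on mean TPM, and with no such limit the median was 0.37. The 3 higher genes were Il1a, Osm, which encodes oncostatin M (44.6 and 10.7 TPM, 1.86), and Csf1, the growth factor that sustains microglia (30.5 and 6.10 TPM, 2.38). Tnf, tumour necrosis factor, averaged 49.2 and 28.9 TPM, at 1 TPM or more in 28 and 17 cells, and did not pass by the ratio because visual cortex had 73.8 and 79.7 TPM. Apart from Il1a these genes were seen in fewer than 40 cells of a class, and the list's median by mean log2 was 0.55, and 0.31 within runs. Il1b, the gene of interleukin 1 beta, was not measured: it was found in 1 Ccl4-high cell and in 0 negative cells, which leaves that comparison without a value.

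Genes of the NF-kB pathway did not follow as a group: 1 of 27 was higher and 5 were lower by the ratio, against 10.4% and 9.99% of all genes, with a median of 0.09. Nfkbia, the inhibitor that NF-kB itself induces, averaged 349.8 and 265.2 TPM, was seen at 1 TPM or more in 73.5% and 74.1% of cells, and had a difference of mean log2 of 0.11 (0.64, 0.76 and -1.07). The regions thus went opposite ways, 5 of 9 runs were above 0, and leaving out 1 region or run gave -0.50 (without the first hippocampal run) to 0.704 (without visual cortex). Rel, a subunit of the factor, passed by mean log2 (0.95).

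By the ratio 6 of 20 immediate early genes were higher and 0 lower, beside 10.4% and 9.99% of all genes. Their median was 0.37, and 0.16 within runs, where the median of all genes was -0.17 against 0.00 with runs pooled. By mean log2, 10 of 20 were higher, beside 4.25% of all genes. The list's median by mean log2 was 0.58, and 0.43 within runs (all genes 0.06 and 0.04). The measure by mean log2 favours abundant genes: of the 1587 genes with a mean of 100 TPM or more, 17.6% were higher by it, with a median of 0.27. Fos and Egr1, the textbook members, were present in nearly every cell of both classes, Fos at 3105 and 2808.9 TPM and Egr1 at 4493 and 3688 TPM, with differences of mean log2 of 0.77 and 0.75. Fosb, a further AP-1 member, averaged 91.9 and 55.2 TPM (0.86 by the ratio), and Klf6, a zinc-finger transcription factor, 929 and 469 TPM (1.004). In visual cortex, at 1367 and 259.3 TPM, 1 Ccl4-high cell held 43415 TPM of Klf6 and mean log2 differed by 0.16. Without the second run of visual cortex the log2 ratio of Klf6 was 0.28. Nr4a1, an orphan nuclear receptor gene, was higher by the ratio (21.5 and 5.20 TPM) but was seen in 12 and 8 cells.

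Gem, a small GTPase gene of the immediate early list, averaged 256.9 and 165.6 TPM, with a difference of mean log2 of 1.58, and Ier3, a survival gene, 251.4 and 149.6 TPM with 1.36. Both changed within runs, where the difference of mean log2 was 0.78 and 0.45 and the log2 ratio turned from 0.66 to -0.21 and from 0.85 to -0.44. By mean log2, Gem was negative only in run 3 of hippocampus (-0.60) and of visual cortex (-1.43), with 3 and 5 Ccl4-high cells. Ier3 was negative in run 3 of hippocampus (-3.50, 3 Ccl4-high cells). It was also negative in runs 2 and 3 of visual cortex (-0.81 and -1.03, 15 and 5 Ccl4-high cells). All other runs were positive for both genes. The ratio within runs had a median of -0.17 over all genes. Why the values of these 2 genes changed was not tested. Ifrd1, a transcriptional coregulator, kept its difference within runs (1.402 in all cells, 1.49 within runs, 9 of 9 runs), at 170.8 and 64.8 TPM.

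Feedback inhibitors and mRNA decay genes had 4 of 18 higher and 0 lower by the ratio, beside 10.4% and 9.99% of all genes (median 0.41, by mean log2 0.40 and within runs 0.43). Pim1, a survival kinase, averaged 29.97 and 11.02 TPM (1.33; mean log2 0.95), and Gadd45g, a growth-arrest gene, 54.7 and 10.97 TPM (2.10). Zfp36, whose protein speeds the decay of cytokine mRNAs, averaged 2152 and 1539 TPM, with a difference of mean log2 of 0.66. Dusp1 and Tnfaip3, which damp kinase and NF-kB signalling, did not pass by either measure.

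Stress genes included Ddit3, the transcription factor CHOP of the unfolded protein response, at 193.5 and 55.96 TPM (2.16; mean log2 1.39, and 1.76 within runs in 8 of 9). At 1 TPM or more it was seen in 53% and 39.4% of cells. The regions differed, with 250.4 and 11.5 TPM in hippocampus, 155.9 and 88.6 TPM in thalamus and 174.2 and 67.8 TPM in visual cortex. Of 9 measured stress genes 2 were higher by the ratio and 5 by mean log2, and of 14 heat shock genes 1 and 3, with 0 lower by either measure in both lists. Of all genes, 10.4% were higher and 9.99% lower by the ratio, and 4.25% and 0.607% by mean log2. Within runs the medians by mean log2 were 0.15 for stress genes (0.63 with runs pooled) and 0.13 for heat shock genes (0.36).

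By the ratio, identity genes differed little: of 22 measured homeostatic microglia genes 0 were higher or lower (median 0.12), beside 10.4% and 9.99% of all genes. By mean log2, 5 of the 22 (22.7%) were higher (median 0.33). Beside this stand 4.25% of all genes, and 17.6% of those with a mean of 100 TPM or more (median 0.27). Disease-associated microglia genes had 3 of 18 higher and 2 lower by the ratio, shares close to the 10.4% and 9.99% of all genes. Cd9, a tetraspanin, averaged 847 and 480 TPM (0.80; mean log2 1.48, 1.46 within runs), and Cd63, another, 582.5 and 321 TPM (1.08; mean log2 0.70, with -0.20 in thalamus). Among 14 macrophage transcription factors, Irf8 averaged 265.1 and 194.1 TPM, with a difference of mean log2 of 1.35 and 9 of 9 runs above 0, and Id2 was the 1 that passed as higher by the ratio, beside 10.4% of all genes. The 2 that passed as lower, beside 9.99%, were Spi1, the master regulator PU.1 (52.3 and 83.9 TPM, -0.68 by the ratio), and Mef2a (245.1 and 458.2 TPM). By mean log2, 3 of the 14 were higher and 1 lower, beside 4.25% and 0.607% of all genes.

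Other lists are set beside all genes, of which 10.4% were higher and 9.99% lower by the ratio, and 4.25% and 0.607% by mean log2. Of 14 measured interferon response genes 1 was higher and 2 were lower by the ratio (median -0.56), and by mean log2 0 passed in either direction (median -0.05). Cell cycle genes had 5 of 17 higher by the ratio, beside 10.4% of all genes (median 1.12), but 1 by mean log2, beside 4.25% (median 0.09). Mki67, a proliferation marker, was seen in 8 and 6 cells. Complement, lysosome and glycolysis genes had medians of -0.01, 0.04 and 0.20, and lipid handling genes of -0.38 with 2 of 12 higher and 3 lower. Of 10 MHC class I genes, some of which are near-identical copies and uncertain singly, 0 passed by the ratio, and of 4 MHC class II genes 2 were higher and 1 lower. By mean log2, 4 of 18 lysosome genes (22.2%) and 2 of 10 MHC class I genes (20%) were higher. Complement, glycolysis and lipid handling genes had 1 higher each by mean log2, and MHC class II genes 0. Of genes with a mean of 100 TPM or more, 17.6% were higher by that measure. TGF-beta signalling genes had 0 of 10 past the limit by both measures.

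**Figure D4:**
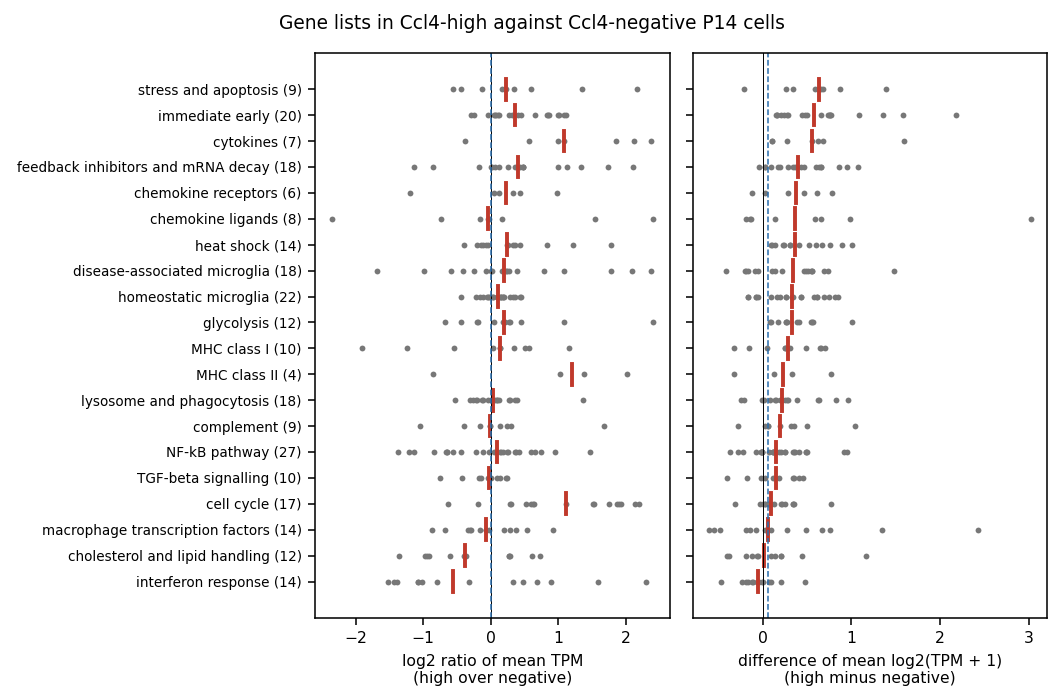
Measured members of 20 gene lists in Ccl4-high against Ccl4-negative P14 cells, by the log2 ratio of mean TPM (left) and the difference of mean log2(TPM + 1) (right); grey points are genes, red bars list medians, dashed blue lines the medians of all measured genes, and numbers in brackets the measured members. By mean log2, immediate early and cytokine genes have medians of 0.58 and 0.55 and interferon genes -0.05.

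Among genes outside the lists, those ranked first by mean log2 included Ptprc, which encodes the sort antigen CD45 (463.8 and 263.4 TPM, 1.70), Asph, an aspartate hydroxylase (410.7 and 260.1 TPM, 1.498), and Blnk, an adaptor protein of immune receptor signalling (277.96 and 115.2 TPM, 1.44). Ptprc differed by 2.88 in hippocampus and 0.43 in thalamus, where the runs gave 1.42, -1.11 and -1.75, and by 1.11 without hippocampus. Over all runs it was above 0 in 7 of 9. Blnk was above 0 in 7 of 9 as well (1.199 within runs), and in thalamus the runs gave 0.43, -0.65 and -0.19. Ighm, a B cell gene, was seen in 86.8% and 85.9% of cells at 1 TPM or more, and Cd79b, another, averaged 132.9 and 43.3 TPM (log2 ratio 1.58, but 0.012 without the first hippocampal run). The summed level of 5 B cell genes had a median of 293.3 TPM (0 to 5272) in Ccl4-high and 73.1 TPM (0 to 6698) in negative cells, while Cd79a stayed below 1 TPM in every cell. By the ratio, Ano10 (60.3 and 5.503 TPM, 3.36), Hadh, an enzyme of fatty acid oxidation (52.3 and 9.65 TPM, 2.62), and Atxn10 (550 and 43.6 TPM, 2.60) stood highest with others. The differences of mean log2 for these 3 were 0.96, 0.71 and 0.63, and 1 cell held 80.0% of the Ccl4-high total of Atxn10.

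Lower genes were fewer by mean log2 and of mixed function. Stxbp5, a syntaxin-binding protein gene (15.3 and 120.6 TPM, log2 ratio -2.90), Bcl7b (11.2 and 86.9 TPM, -2.45), Slc30a9, a zinc transporter gene (15.97 and 71.8 TPM, -2.41), and Vamp5 (5.89 and 76.7 TPM, -2.35) had the lowest ratios. Slc30a9 was lower in 9 of 9 runs, with a difference of mean log2 of -0.76 and of -0.92 within runs. By mean log2, Rmnd1, a mitochondrial translation gene (71.6 and 221.2 TPM, -1.03), Fkbp5, a glucocorticoid-induced co-chaperone gene (27.8 and 76.3 TPM, -0.96), Gnai2 (113.7 and 281.9 TPM, -0.87) and Ddx3x, an RNA helicase gene (183.4 and 287.3 TPM, -0.87), were among the lowest. Ddx3x was lower in each region, at -0.77, -0.86 and -0.96. None of these 4 was lower in P7 and adult cells alike: Ddx3x differed by 0.29 and 1.205 there, and Rmnd1 by 1.17 and 0.16.

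The same classes were then formed in cells that the choice had not used. Paired-end P14 visual cortex gave 78 Ccl4-high and 61 Ccl4-negative cells, P7 62 and 21 cells over the 3 regions, and the adult 39, 44 and 52 Ccl4-high with 18, 28 and 21 negative cells in hippocampus, thalamus and visual cortex. At P7 the negative cells were few, with 5 in thalamus. The classes also differed in genes per cell in the P7 and adult cells. The gap was widest in P7 thalamus, where the Ccl4-high median was 2556.5. The median of the 5 negative cells there was lower than that of negative cells in P7 hippocampus. The medians were 2164.5 and 1643.5 in P7 hippocampus and 4117 and 3535 in adult thalamus. In visual cortex of both ages the negative cells had the higher median. The part of these gaps in the differences was not tested. By mean log2, 13.5% of the 10870 genes were higher and 2.01% lower in the paired-end cells, 11.2% and 1.88% at P7, and 10.5% and 0.791% in the adult. The paired-end cells are 1 set, so no agreement over regions was asked of them.

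Ccl3 averaged 1577 and 201.9 TPM in paired-end, 2705.5 and 762.7 TPM in P7 and 1118 and 592.6 TPM in adult cells, with differences of mean log2 of 4.16, 4.43 and 2.99. Id2 differed by 2.29, 4.36 and 3.43, Atf3 by 2.28, 1.65 and 2.81, and Il1a by 1.31, 1.31 and 1.02. By these values, averaged over the regions at P7 and in the adult, these 4 genes stood on the same side in all 3 further sets. Ddit3 (1.404, 0.94 and 1.31), Blnk (1.10, 1.38 and 1.51) and Klf6 (1.09, 1.89 and 1.34) did so as well. Among these genes only Ccl3, Id2 and Blnk passed in all sets with the same sign in every region. Atf3, Il1a, Ddit3 and Klf6 did not. Asph differed by -0.35 at P7, Irf8 by -0.11 in paired-end cells and Ier3 by -0.03 in the adult.

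Some genes stood out more in the other cells than among those compared here. Nfkbia, at 0.11 by single reads at P14 with regions of both signs, averaged 618 and 231.1 TPM in paired-end cells (4.02), 856.8 and 209.4 TPM at P7 (4.08) and 360.2 and 153.98 TPM in the adult (1.13). In the paired-end cells 69 of 78 Ccl4-high and 30 of 61 negative cells held it at 1 TPM or more. The visual cortex of the same age therefore gave 4.02 by paired-end and -1.07 by single reads, and read layout, library depth and preparation cannot be told apart here. Ccl12 differed by 2.64, 3.13 and 2.81 in the 3 further sets against 0.98, and Btg2, an antiproliferative immediate early gene, by 2.003, 1.998 and 1.64 against 0.76. No test of these differences was possible without replicates.

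Of the 462 genes higher by mean log2, 37.4% were also higher in paired-end cells, 24.5% at P7 and 28.1% in the adult, beside 13.5%, 11.2% and 10.5% of all measured genes. The shared genes were 11.8%, 9.31% and 11.4% of the genes higher in those sets, beside 4.25% of all. In all 3 further sets 95 genes (0.874% of all) were higher, and 24 of them were among the 462 (25.3% of the 95 and 5.19% of the 462). The 24 included Ccl3, Id2, Gem, Blnk and Rel, the cyclin gene Ccnl1 (1.17 at P14, then 1.61, 1.07 and 1.504), Klf10, a TGF-beta-induced early gene (1.07, then 1.67, 1.30 and 0.68), and Gpr34, a lysophosphatidylserine receptor of microglia (0.75, then 0.60, 2.12 and 1.95). Abundant genes passed this measure more often in the single-read P14 cells, as given above; this was not computed in the further sets. Of the 66 lower genes, 4, 1 and 1 (6.06%, 1.52% and 1.52%) were lower in these sets, beside 2.01%, 1.88% and 0.791% of all genes, and 0 in all 3.

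**Figure D5:**
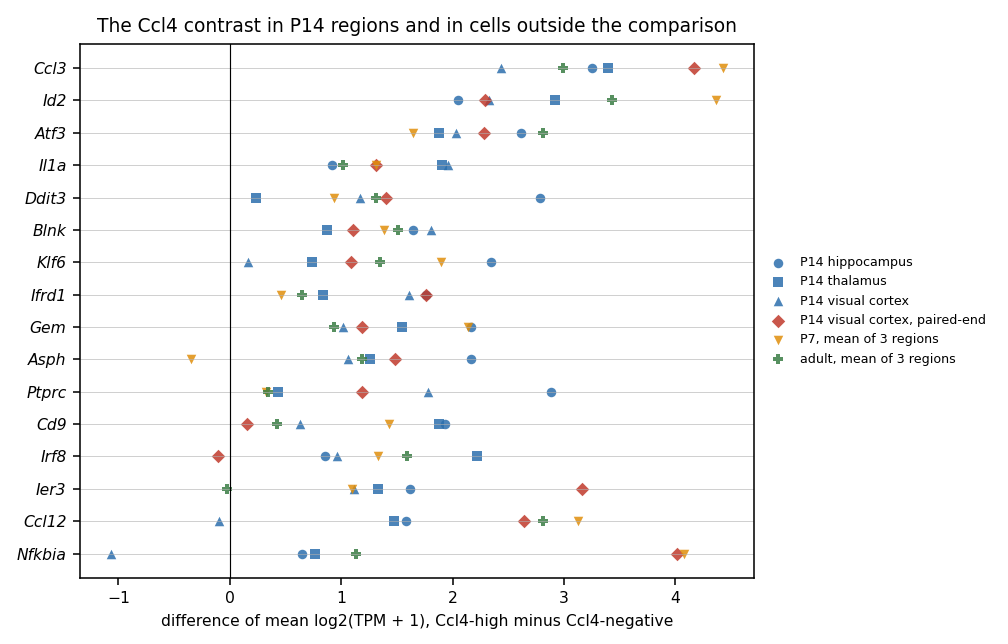
Difference of mean log2(TPM + 1) between Ccl4-high and Ccl4-negative cells for 16 genes, in the 3 P14 regions compared (blue) and in paired-end P14 visual cortex, P7 and adult cells. Points for P7 and adult cells are means of 3 regions. Ccl3, Id2, Atf3 and Il1a lie right of 0 in all 6, while Nfkbia runs from -1.07 to 4.08.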

How the data were processed

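Single cells were sequenced on the Fluidigm C1 system. The authors deposited 1 table of 43280 genes in TPM for 1617 cells; RSEM 1.2.19, Seurat and GRCm38 are named in the submitters' processing notes, while the sources used here give no aligner, annotation, strand or cell filter. Sums per cell ran from 996167 to 1000000 and 0 columns were identical. TPM keeps no depth and the libraries hold no molecular identifiers, so precision could not be derived from reads.

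Groups came from the labelled age, region and read layout. Within each region, log2 of the ratio of mean TPM (pseudocount of 1 TPM) between classes was averaged over 3 regions; genes needed a mean of 5 TPM over the 428 single-read P14 cells (151 Ccl4-high, 170 Ccl4-negative), and a gene passed at 1.5-fold with the same sign in 3 regions. Pseudocounts understate differences of low genes. The difference of mean log2(TPM + 1) was an alternative. Shares have exact Clopper-Pearson 95% intervals. The members, gene lists and tests were chosen with earlier results of these data known. A gene could be named with 50 TPM in the higher class, presence (1 TPM) in 25% of that class and equal signs by both measures; the 12 largest ratios in each direction, up to 4 genes of each list and all measured chemokine ligands and receptors were eligible; some genes are not reported here. Other genes named, including those ranked by mean log2, recurring elsewhere or behind a count, were chosen after their values were seen. No doublets were called, since callers rest on molecule counts. The measures were tested on simulated data, where genes drawn without a difference passed the ratio limits about as often as the real genes did, so counts of such genes say little. The simulated cells were drawn from thalamic Ccl4-negative cells alone and held genes of 50 TPM or more, so these rates are not like for like. The rate by mean log2 is not reported here. Tools were numpy 2.4.6 with pandas 2.3.3 under Python 3.11.15, scipy 1.17.1 for intervals and matplotlib 3.10.9 for plots. Coordinates are from GENCODE M21 (GRCm38).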

Additional observations from a re-analysis of the deposited data

How the results depend on the processing

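By the ratio of means, 10.4% of 10870 genes were higher and 9.99% lower. These shares were 10.5% and 9.02% of 6131 genes with a mean of 20 TPM required, so that fewer genes were counted, and 4.25% and 0.607% by the difference of mean log2. Leaving out 1 region or run at a time gave 8.29 to 19.2% higher and 8.92 to 18.51% lower genes, and leaving out a region also asks for the same sign in fewer regions. The median of the immediate early list, 0.37, was 0.30 with a pseudocount of 10 TPM, 0.30 with no filter, 0.58 by mean log2 and 0.44 with Ccl4 at 500 TPM or more. It was 0.16 within runs (all genes -0.17), 0.26 in cells with 2500 genes or more, and 0.29 to 0.46 over the left-out regions and runs. That of cytokines, 1.09, was 0.37 with no filter, 1.68 without the third run of every region, and 0.94 to 1.89 over the left-out regions and runs. It was highest without the third thalamic run. With classes formed by Ccl3 in place of Ccl4, the MHC class II median turned to -0.088 and the log2 ratios of Fosb, Plk3, Ano10, Atxn10 and Ddx3x to -0.13, -0.37, -0.046, -1.34 and 0.16. In the same classes the mean log2 differences of Ddx3x and Rmnd1 turned to 0.60 and 0.20, and those of Id2, Atf3 and Il1a were 1.85, 1.27 and 0.70. Within runs the log2 ratios of Gem and Ier3 turned to -0.21 and -0.44, and the mean log2 differences of Id2 and Atf3 were 1.82 and 1.71. Atf3 was at 1.31 without the third run of every region and at 1.77 to 2.58 over the left-out regions and runs, lowest without the third and highest without the second thalamic run. The cause was not tested for any of these. Ccl3 kept its direction in all settings run, at 2.77 to 3.47 by mean log2 and 1.85 to 3.41 by the ratio, and Id2, Atf3 and Il1a kept theirs. The share of Ccl4-high cells, 35.3%, was 47.9% at 10 TPM and 26.2% at 500 TPM. In the other cells, 31.4% higher and 26.2% lower genes of the paired-end set by the ratio were 13.5% and 2.01% by mean log2, 20.6% higher at P7 were 11.2%, and 22.7% and 4.19% in the adult were 10.5% and 0.791%. Settings on runs, on 2500 genes and on mean log2 by gene were chosen after seeing the data. No paired analysis was possible because the result comes from no test and the cell numbers pair no cells across classes. Depth is unknown, so no value could be set against a limit from reads.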

Other observations

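Ccl4 itself was unevenly spread over the sets that entered no comparison above. At 100 TPM or more it was found in 14.4% of E12.5 whole-brain cells (exact Clopper-Pearson 95% interval 9.13 to 21.1%), 29.4% of E16.5 cells (21.6 to 38.1%) and 63.8% of adult whole-brain cells (57.1 to 70.1%). At E18.5, 1 of 21 cells from hippocampus, 12 of 50 from thalamus and 9 of 22 from visual cortex reached this level, and the hippocampal cells held a median of 372 genes. The E12.5 cells held a median of 4646 genes, and the adult cells 3659.

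The 83 hippocampal cells labelled A2M, a label whose meaning the sources do not explain, had the largest share of all sets: 68 cells (81.9%, 71.95 to 89.5%) held Ccl4 at 100 TPM or more, with a median of 4581 TPM, and 39 of 66 adult hippocampal cells did (59.1%, 46.3 to 71.05%) with a median of 194.3 TPM. All 83 A2M cells held 1 TPM or more (100%, 95.65 to 100%) and 0 were below it, against 18 of 66 adult hippocampal cells. A Ccl4-negative class could therefore not be formed among the A2M cells. All intervals cover counting error over cells only, each set is 1 sample, and no difference between sets was tested.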
